A study of Mus musculus with 2 samples.

Results

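Klf4 occupancy was examined at 8 genes that signal vessel growth and maturation, namely Vegfa, Pdgfb, Jag1, Tgfb1, Hif1a, Epas1, Smad6 and Smad7, in the mesenteric microvasculature of C57BL/6 mice. Each gene was represented by a fixed window of 50 to 115 kb in mm9, and a peak belonged to a gene's window when its midpoint lay inside it. The 8 windows, 575 kb in all, held 9 of the 7313 peaks of the single peak list of the series. Klf4 chromatin immunoprecipitation followed by sequencing had been carried out on mesenteric arcades of mice kept on chow, in 1 library from mice labelled eYFP+/+ Klf4WT/WT and 1 library from mice labelled eYFP+/+ Klf4delta/delta, in which Klf4 is deleted in smooth muscle cells (SMC). Both groups share the eYFP allele. The sources used here do not give the driver of the deletion, the age of the animals or the number pooled per library. The labels describe the tissue as a mixture of SMC, epithelial cells, macrophages and other cells, so no peak is tied to a cell type. The list names no genotype, and which library it was called on is not given, so intact and Klf4-deleted tissue could not be compared. Whether a listed peak is lost without Klf4 was therefore not tested.

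These genes act at successive steps by which a capillary sprout becomes a covered, stable vessel. Vascular endothelial growth factor A (Vegfa) drives endothelial sprouting, platelet-derived growth factor B (Pdgfb) released by endothelium draws in pericytes and SMC, and the Notch ligand Jag1 and transforming growth factor beta (Tgfb1) promote differentiation of those mural cells. Hif1a and Epas1 encode the oxygen-sensitive subunits of the hypoxia-inducible factors, and Smad6 and Smad7 encode inhibitory Smads that damp bone morphogenetic protein and TGF-beta signalling. Klf4 is a zinc-finger transcription factor of SMC, endothelium and epithelium that binds GC-rich and CACCC-type DNA elements.

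The RefSeq promoter table (GRCm38.p6) holds start sites for 5 of the 8 genes, Vegfa, Jag1, Tgfb1, Hif1a and Smad6, and Pdgfb, Epas1 and Smad7 had no entry. The 250 bases before the start site are shown for 3 of them to set the gene with the most GC-rich elements (Tgfb1) beside one with several (Smad6) and the one with none (Jag1). Capitals mark matches to the 5-letter cores CACCC and CGCCC, the letters typical of KLF-type elements, on either strand (GGGTG and GGGCG on the strand shown). Matches may overlap each other.
Tgfb1 (chr7:25686752-25687001, plus strand): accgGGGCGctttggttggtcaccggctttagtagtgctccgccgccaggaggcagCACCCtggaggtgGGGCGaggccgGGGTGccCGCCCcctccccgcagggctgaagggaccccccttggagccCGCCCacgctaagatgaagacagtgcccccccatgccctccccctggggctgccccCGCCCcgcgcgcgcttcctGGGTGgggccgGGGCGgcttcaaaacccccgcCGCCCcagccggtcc
Smad6 (chr9:64022060-64022309, minus strand): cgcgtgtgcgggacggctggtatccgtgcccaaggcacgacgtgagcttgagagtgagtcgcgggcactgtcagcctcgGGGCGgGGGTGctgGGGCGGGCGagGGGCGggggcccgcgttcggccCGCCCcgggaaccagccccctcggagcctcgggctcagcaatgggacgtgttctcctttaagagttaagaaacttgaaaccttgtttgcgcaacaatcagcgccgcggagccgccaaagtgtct
Jag1 (chr2:137116521-137116770, minus strand): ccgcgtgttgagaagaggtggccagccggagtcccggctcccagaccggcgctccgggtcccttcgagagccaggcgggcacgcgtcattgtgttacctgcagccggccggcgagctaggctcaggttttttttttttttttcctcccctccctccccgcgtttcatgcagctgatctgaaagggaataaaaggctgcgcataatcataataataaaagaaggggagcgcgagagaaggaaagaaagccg

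Tgfb1 had 3 matches to CACCC and 7 to CGCCC, and Smad6 had 1 and 5. Vegfa had 2 matches to each at the first of its start sites in the table and only 1 to each at the second. Hif1a had 3 to CACCC and 1 to CGCCC. Jag1 had no match to either, whereas 69.4% of all promoter entries held at least 1 of the 2 cores. Such short cores are common: of 32851 promoter entries, 52.0% held CACCC and 43.7% held CGCCC within the same 250 bases. At least 7 matches to CGCCC were held by 2.27%, at least 5 by 6.8% and at least 2 by 27.5%. For CACCC, at least 3 matches were held by 6.92% and at least 2 by 21.1%. A match is a run of letters and not a binding site. These coordinates belong to GRCm38.p6 and the peaks to mm9, so whether a peak covers any of these promoters was not determined, and the peaks' own sequences were not used here.

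Klf4 peaks lay in 7 of the 8 windows. Vegfa, Pdgfb, Jag1, Tgfb1 and Smad6 had 1 peak each, Hif1a and Smad7 had 2 each, and the window of Epas1 had none. When the placed chromosomes were cut into consecutive windows of the same length, a peak was found in 11.2% of windows of 50 kb (the length for Vegfa, Pdgfb and Tgfb1), 13.0% of 60 kb (Smad7), 14.7% of 70 kb (Jag1), 15.4% of 75 kb (Hif1a), 19.9% of 105 kb (Smad6) and 21.1% of 115 kb (Epas1). Added over the 8 genes, these shares come to 1.18 windows with a peak, against 7 observed. At least 2 peaks were held by 4.34% of windows of 75 kb and 3.26% of 60 kb, the lengths for Hif1a and Smad7. These shares count gene-poor sequence too, whereas each of the 8 windows was drawn around a gene, and where a neighbouring window also held peaks the shares were higher: among windows with a peak within 100 kb of either side they ran from 23.6% (50 kb) to 41.9% (115 kb). The windows of Vegfa, Jag1, Smad6 and Epas1 had no outside peak with its midpoint that close. No test was attached, since the 8 genes were chosen with results of these data known.

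Together the windows held 15.7 peaks per Mb (exact Poisson 95% interval 7.16 to 29.7, counting error only), compared with 2.86 per Mb (2.80 to 2.93) for the list. The latter rate counts the 7298 peaks on the autosomes and chromosome X, over the span between each chromosome's outermost peaks. Peaks covered 2.47% of the bases in the windows and 0.285% of the bases in that span. The sequence around the windows was also richer in peaks than the list as a whole. In the rest of the 1 Mb centred on each window there were 45 peaks, or 6.06 per Mb (4.42 to 8.11). Inside the window the rate was above that of the surroundings at 7 of 8 genes, but a single peak in a window this short is enough to give that order, so it adds nothing to the count of windows with a peak.

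**Figure D1:**
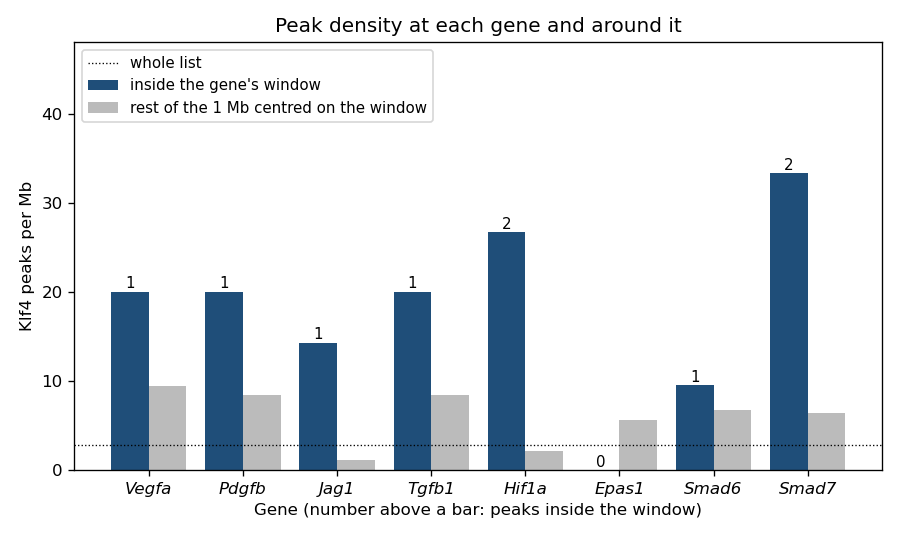
Klf4 peaks per Mb (vertical axis) inside the window of each gene (dark bars, with the number of peaks above) and in the rest of the 1 Mb centred on the window (grey bars). The dotted line, labelled whole list, is the rate of the list on the autosomes and chromosome X, 2.86 per Mb. Smad7 and Hif1a, with 2 peaks each, have the highest bars, Epas1 has 0 inside its window and 5.65 per Mb around it, and Jag1 and Hif1a have the sparsest surroundings, 1.08 and 2.16 per Mb.

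Each of the 4 ligand genes had exactly 1 peak, with scores from 188.81 to 265.34 against a median of 112.02 for the list. The score is the peak caller's own value, on a scale not given, and is used here to rank peaks within the list only. Peaks called strong or weak below are high-scoring or low-scoring ones. All 4 peaks were in the upper 25% of scores, above 161.17, and their widths ran from 1146 to 2986 bp against a median of 913 bp for the list.

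Jag1, a membrane-bound ligand through which endothelial cells and SMC signal to Notch receptors on adjacent SMC, had the widest and highest-scoring of the 9 peaks. This peak, on chromosome 2 at 136940021 to 136943006, was 2986 bp wide and scored 265.34. It ranked 20 of 7313 by width and 425 by score. The nearest peak before it (score 261.70) ended 222.2 kb away, and the next peak after it lay 2949.0 kb away. Only 1.8% of the gaps between neighbouring peaks of the list were longer than that stretch. The Jag1 peak is therefore a wide, high-scoring peak in peak-poor sequence, with just 1 other peak in the surrounding 1 Mb.

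Tgfb1, whose product induces contractile and matrix genes in SMC, had a peak of 2348 bp on chromosome 7 at 26472005 to 26474352. Its score was 203.63, above 86.4% of the list, and its width ranked 67. Unlike Jag1, Tgfb1 lay among other peaks: 8 more fell in the surrounding 1 Mb. The closest of them ended 28.2 kb before the Tgfb1 peak and 11.2 kb outside the window, was 720 bp wide and scored 206.96. So a narrower peak with a score like that of Tgfb1 sits just beyond the window on that side.

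Vegfa, the main growth factor for endothelial sprouts, had a peak of 1980 bp on chromosome 17 at 46167315 to 46169294 with a score of 188.81. By score this peak ranked 1212, and by width 210. The nearest other peak lay 120.4 kb away. Pdgfb, the signal by which endothelium recruits pericytes, had a peak with nearly the same score, 189.40 (rank 1205), on chromosome 15 at 79843342 to 79844487. At 1146 bp it was much narrower than that of Vegfa, with 71.0% of the list narrower still, compared with 97.1% for Vegfa. Its neighbours lay 119.5 kb before and 118.8 kb after, and the former, 86.2 kb outside the window, scored 300.97, above each of the 9 peaks in the windows.

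The hypoxia-inducible factor genes differed from each other in the presence of a peak. Hif1a, which encodes the subunit that accumulates in hypoxic cells of most kinds, had 2 narrow peaks on chromosome 12. The first, at 75008880 to 75009458, was 579 bp wide and scored 69.53, above only 10.9% of the list. The second, at 75009604 to 75010345, was 742 bp wide and scored 140.93, above 67.6% of the list. Just 145 bp separated them, and joined they form 1 region of 1466 bp. Gaps under 1 kb made up 8.51% of all gaps between neighbours in the list, and gaps under 2 kb made up 9.15%. With the joined region counted once, Hif1a also has a single site of enrichment, as the ligand genes do. A further peak, 1130 bp wide with a score of 160.57, began 256 bp beyond the end of the Hif1a window and was not counted; it scored higher than both peaks inside.

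Epas1, which encodes the related subunit HIF-2 alpha that is abundant in endothelium, had no peak in its window of 115 kb, the longest of the 8. Since 21.1% of windows of that length held a peak, most such windows of the genome had none either. The stretch without a peak that contains Epas1 ran for 670.7 kb on chromosome 17, and 12.6% of the gaps in the whole list were longer (7.18% of those on chromosome 17). Its flanking peaks were weak: the one before the window scored 60.44, close to the lowest score of the list (60.01), and ended 381.8 kb from it, and the one after scored 88.74 and began 174.0 kb from it. Vegfa lies on the same chromosome, and the rest of the 1 Mb around it held 9 peaks against 5 around Epas1. A missing peak in a list called at an unknown depth and threshold does not show absent binding.

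Both inhibitory Smad genes carried peaks. Smad7, which blocks TGF-beta and bone morphogenetic protein receptors, had a wide and a narrow peak on chromosome 18. The wide one, at 75528362 to 75530594, measured 2233 bp and scored 246.05, ranking 564 in the list and 15 on its chromosome. The narrow one, at 75525954 to 75526851, measured 898 bp and scored 67.51, the lowest of the 9. They were 1510 bp apart, farther than the Hif1a pair, and the score of the wide peak was 3.64 times that of its neighbour, compared with a ratio of 2.03 at Hif1a. Another weak peak, with a score of 80.44 and a width of 504 bp, ended 6.7 kb before the window of Smad7. Beyond the wide peak the next one followed only after 325.0 kb.

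Smad6, which acts chiefly on the bone morphogenetic protein branch, had 1 peak of 1269 bp on chromosome 9 at 63868719 to 63869987. Its score of 168.68 stood above 77.6% of the list, just inside the upper 25%. Neighbouring peaks lay 262.9 kb before and 150.6 kb after it, with scores of 251.67 and 111.98. At Smad6 and at Smad7 the strongest peak was thus in the upper 25% of scores, as at the 4 ligand genes and unlike at Hif1a.

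**Figure D2:**
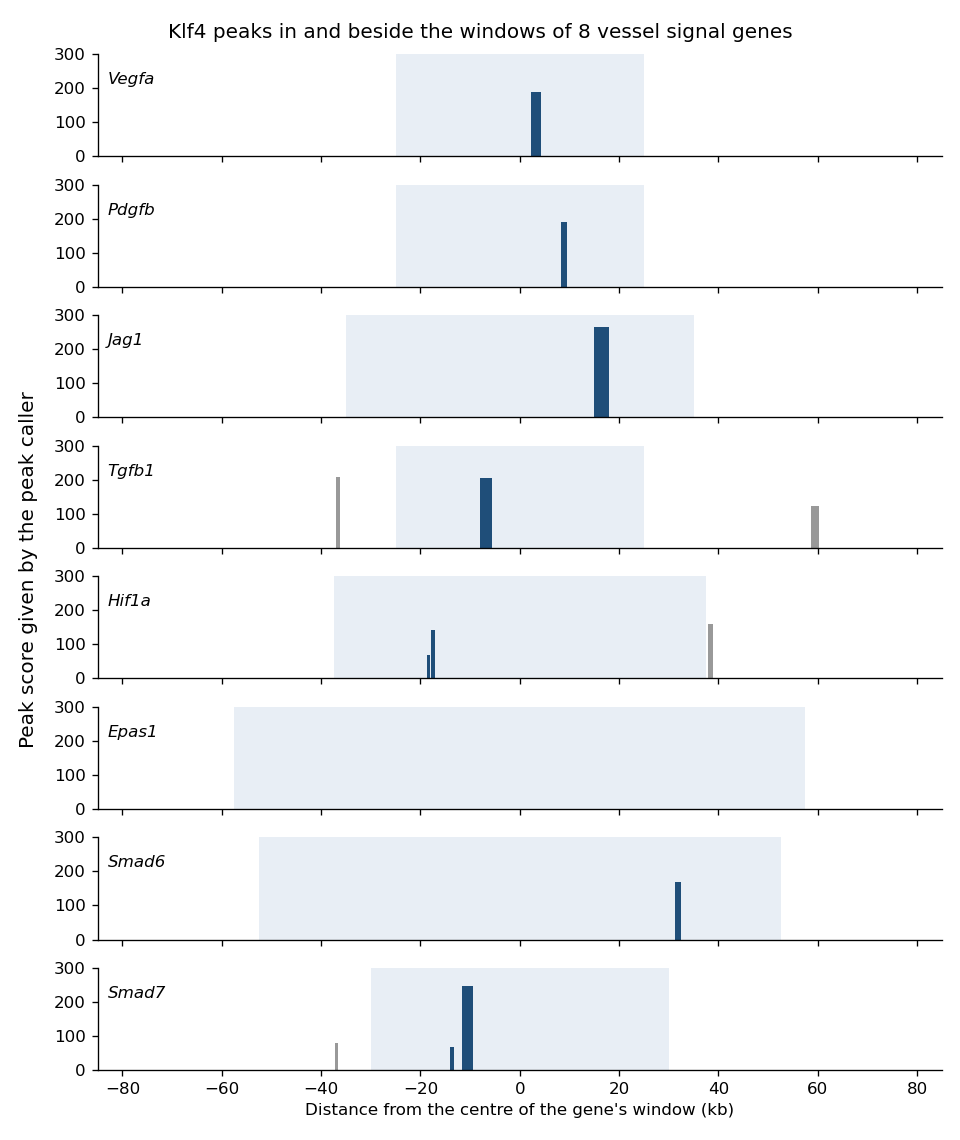
Positions of Klf4 peaks relative to the centre of each gene's window (horizontal axis, kb), with bar width the width of the peak and bar height the caller's score. Shaded areas are the windows, dark bars the 9 peaks inside them and grey bars the nearest peaks outside where they fall within the range shown. Hif1a and Smad7 show a close pair each, Epas1 is empty, and grey bars stand beside the windows of Tgfb1, Hif1a and Smad7.

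None of the 9 peaks lay close to the limits of its window. Their midpoints were between 16.1 kb (Pdgfb) and 21.7 kb (Vegfa) from the nearer end, in windows that differed in length from 50 to 115 kb. How the windows were placed relative to each gene's start in mm9 is not known here, so this spacing was not compared with start sites.

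Peaks at these genes were mostly high-scoring and wide relative to the list. The median score was 188.81 against 112.02, and 7 of 9 peaks were above the list's median, which 50% of all peaks exceed. In the upper 25% of scores (25% of all peaks) there were 6 of 9, and in the upper 25% of widths (25% of all peaks), above 1203 bp, there were 5 of 9. Those 5, at Vegfa, Jag1, Tgfb1, Smad6 and the wide peak of Smad7, were in both, as were 13.4% of all peaks. Median widths were 1269 bp for the 9 peaks and 913 bp for the list, and 6 of 9 were wider than that list median, as were 49.9% of all peaks. By score and by width alike, the peaks outside the upper 25% included both Hif1a peaks and the narrow Smad7 peak. The 2 peaks below the median score were the weaker members of the Hif1a and Smad7 pairs, so the strongest peak of each of the 7 windows was above it. These are descriptions of 9 peaks from 1 list, with no replicate and no test.

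Relative to their width, the same peaks did not score high. Dividing by width lowers the value of a wide peak at a given score, and no comparison with peaks of matched width was made. Score per kb of width had a median of 110 for the 9 peaks and 129 for the list, and only 3 of 9 exceeded the list's median (50% of all peaks do). These 3 were the second Hif1a peak (190 per kb), Pdgfb (165 per kb) and Smad6 (133 per kb). Jag1, Tgfb1 and Vegfa, with 88.9, 86.7 and 95.4 per kb, exceeded 16.6%, 15.3% and 21.1% of the list.

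**Figure D3:**
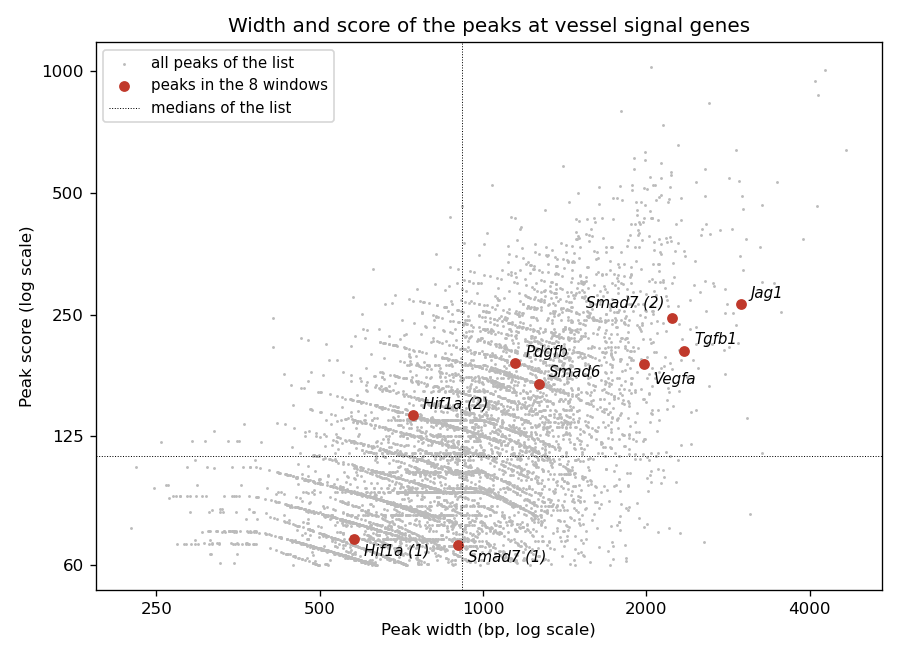
Width (horizontal axis, bp, log scale) and score (vertical axis, log scale) of all 7313 peaks (grey) and of the 9 peaks in the windows (red, labelled by gene, with a number where a gene has 2); dotted lines are the medians of the list, 913 bp and 112.02. Jag1, Tgfb1, Vegfa and the second Smad7 peak lie far to the right, at 1980 to 2986 bp, and the first peaks of Hif1a and Smad7 lie near the bottom, at 69.53 and 67.51.

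The windows do not assign a peak to a gene. By gene order in RefSeq, the closest protein-coding neighbours are 1600014C23Rik and Mrps18a for Vegfa, Cbx7 and Rpl3 for Pdgfb, Slx4ip and Btbd3 for Jag1, B9d2 and Ccdc97 for Tgfb1, Prkch and Snapc1 for Hif1a, Prkce and Tmem247 for Epas1, Smad3 and Lctl for Smad6, and Dym and Ctif for Smad7. Smad6 thus stands next to Smad3, which encodes a receptor-activated Smad of the TGF-beta pathway. Whether any of the 9 peaks lies nearer to a neighbour than to the gene named was not determined. The wider lists of VEGF, PDGF, Notch, TGF-beta, angiopoietin and hypoxia genes were not counted for the same reason, that no mm9 annotation was used here.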

How the data were processed

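Stromal vascular cells from ground frozen mesenteric arcades were fixed, sonicated and immunoprecipitated against Klf4 before TruSeq library preparation, per the labels' protocols. Bowtie, SAMtools and mm9 appear in the submitters' processing notes. The deposited list gives each peak a start, an end, a name beginning with MACS and a score from the authors' peak caller. The sources used here do not give its version, threshold, control or score scale, nor the read depth.

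Starts were shifted by 1 base to 1-based coordinates. Peaks were assigned to a window by their midpoint, and no filter on score was applied. Windows of the same length were laid end to end over each autosome and chromosome X, between its outermost peaks. Rates carry exact Poisson 95% intervals, which cover counting error only. The code that counts peaks per window was checked on simulated peaks with known positions, which tests the computation only. With 1 peak list and 1 library per genotype there was no replicate, so no significance test was made. All 8 genes and all their peaks are named. The genes, windows and lists were chosen with earlier results of these data known. Alternatives varied the score threshold, the window, merging of close peaks, the ranking and the background. Coordinates were not moved between builds. The tools were scipy 1.17.1, numpy 2.4.6 and pandas 2.3.3 under Python 3.11.15, with plots by matplotlib 3.10.9.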

Additional observations from a re-analysis of the deposited data

How the results depend on the processing

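A peak was found in 7 windows under each alternative except the upper 25% of scores, which left 6 because Hif1a dropped to 0. The peak number of Hif1a also fell from 2 to 1 when neighbours under 1 kb apart were merged and with the upper 50% of scores, and that of Smad7 from 2 to 1 with the upper 50% and the upper 25% of scores. With windows extended by 25 kb on each side, Tgfb1 rose from 1 to 2 and Hif1a and Smad7 each from 2 to 3. The total of 9 peaks ranged from 6 to 12 and the rate of 15.7 per Mb from 10.4 to 18.2. Ranking by score per kb of width turned the position of the 9 peaks around: their median exceeded 33.5% of the list in place of 83.4%.

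The share of same-length windows with a peak was higher among those with a peak within 100 kb of either side. At the length for Vegfa, Pdgfb and Tgfb1 it was 23.6%, for Smad7 27.2% and for Jag1 30.3%. At the length for Hif1a it was 31.9%, for Smad6 39.9% and for Epas1 41.9%. That condition was applied to peak midpoints, and the windows of Vegfa, Jag1, Smad6 and Epas1 do not meet it themselves. For Jag1, Smad6 and Epas1 the nearest outside peaks were 172.2, 130.6 and 174.0 kb away. At Vegfa the nearest one began 99.6 kb away, with its midpoint just beyond 100 kb. On the gene's own chromosome the share was 13.9% for Vegfa, 11.0% for Pdgfb, 13.1% for Tgfb1 and 17.4% for Jag1. For Hif1a it was 13.5%, for Epas1 26.0%, for Smad6 23.4% and for Smad7 11.2%. The comparison of genotypes was not run, because the list names none. No paired analysis was possible because each genotype has a single library and the single peak list names no library. With depth and threshold not given, weak peaks and the lack of one at Epas1 are the least certain values.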
